A study of Mus musculus with 14 samples.

Results

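The lungs compared here had received fired recycled carbon fibre (RCF) or saline (Ctrl): 4 RCF arrays and 3 Ctrl arrays, 7 of the 14 arrays of the study, taken by the group named in each array's title. All animals were male mice of the strain C57BL/6N, and RNA of the lung was taken 6 months after 1 of 4 instillations into the trachea. RCF lungs had received 200 µg per mouse of carbon fibre taken after the firing step. VCF lungs (4 arrays) had received the same dose of fibre before recycling, CCF lungs (3 arrays) the same dose of fibre after carbonization, and Ctrl lungs the phosphate-buffered saline vehicle without fibre. Each array held Cy3-labelled RNA of an independent animal according to the design text, and neither the animals' age nor the hour at which a lung was taken is given in the sources used here.

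Clock, metal-binding and chaperone genes carry most of the values below. The circadian clock runs in nearly every cell as a loop, in which Arntl (also called BMAL1) and Clock switch on the Per and Cry repressors, which then shut their own activators off. Nuclear receptors such as Nr1d1 and Nr1d2 act back on Arntl, and the factors Dbp, Tef and Hlf pass the rhythm on to output genes; the mouse lung has such a clock. Metallothioneins are small cysteine-rich proteins that bind zinc, copper and cadmium, and inducible Hsp70 proteins with their partner Dnajb1 refold damaged proteins.

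A level is log2 of the processed spot intensity minus the array's 75th percentile, so 0 is as bright as that percentile and a difference of 1 is a doubling. Levels of different genes are not comparable, because each probe binds with its own strength. The 75th percentile ran from 797.5 to 1243 intensity units on RCF arrays and from 727.8 to 1346 on Ctrl arrays, and 63.1% to 70.6% of the probes of any array stood well above background. The median SD between arrays of a group was 0.202 for RCF and 0.245 for Ctrl. Lung markers were bright and close between the groups: Sftpc, the surfactant protein of alveolar type 2 cells, lay between 8.90 and 9.34 in RCF and between 8.75 and 9.44 in Ctrl, and Scgb1a1, the club cell secretoglobin, between 8.70 and 9.01 in RCF and between 8.64 and 9.10 in Ctrl. Ager, of alveolar type 1 cells, lay between 5.32 and 5.81 in RCF and between 4.90 and 5.74 in Ctrl.

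Some arrays stood apart from the rest of their group. A list score is the mean, over the genes of a list, of the difference from the Ctrl mean. The liver score was 3.94 on array RCF 1, against -0.21 to 0.39 on the other RCF arrays and -0.35 to 0.47 on Ctrl arrays. The neutrophil score was 1.22 on array Ctrl 1, against -0.66 and -0.55 on the other Ctrl arrays and -1.18 to -0.39 on RCF arrays. Cardiac genes, from muscle around the large lung veins or from the neighbouring heart, scored between -1.19 and 1.77 in RCF and between -1.52 and 0.70 in Ctrl. Results that move without RCF 1, Ctrl 1 or another array are given with and without it. In RNA of a whole lung, fewer cells of a type cannot be told apart from less RNA per cell.

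No probe passed the test. Of 29271 probes, 0 (0%) differed between RCF and Ctrl at a Benjamini-Hochberg adjusted p under 0.05 in limma, and the smallest adjusted p was 0.122. At an unadjusted p under 0.05 there were 1567 probes, 821 higher and 746 lower in RCF. Read at its brightest probe, each of 14468 genes gave a median difference of 0.00. Whatever their p, 7192 of these genes were higher and 7276 (50.3%) lower in RCF. At an unadjusted p under 0.05, 445 (3.08%) were higher and 441 (3.05%) lower. The RCF arrays all lay above the Ctrl arrays for 693 genes (4.79%) and all below them for 682 (4.71%). These shares are what counts within a list are set against, and every gene difference below is one that missed the adjusted threshold. Counts at an unadjusted p under 0.05 were 44 higher and 31 lower after normexp background correction. Its offset shrinks differences of dim probes, but why the counts fell was not tested. It gave -0.19 for Wee1, -0.56 for Ciart, -0.27 for Cry1, -0.64 for Fkbp5, -0.97 for Ccl12, -0.83 for Fam107a, 0.33 for Olfr1495, -0.11 for Nlgn1 and 0.15 for Npas2, all described below. At that p it gave 1 lower gene each in the clock repressor, clock output and metallothionein lists. The alveolar macrophage, monocyte and heat shock lists then held 0 lower genes. The alveolar macrophage median was -0.13 with and without normexp, and the monocyte median -0.32 with it and -0.38 without. Slides coincide with scan sessions. One slide held no Ctrl array, and the other 3 each held Ctrl and RCF, so within-slide differences are given for the leading genes.

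**Figure D1:**
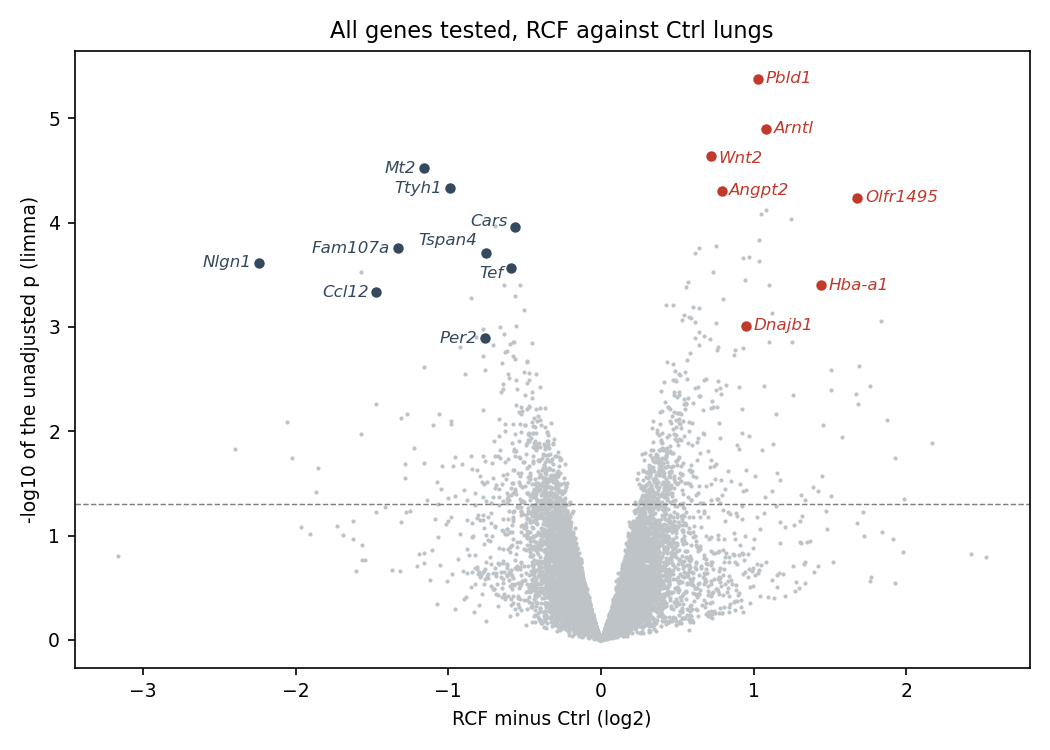
Each grey point is 1 of 14468 genes: the x axis is the difference RCF minus Ctrl (log2) and the y axis -log10 of limma's unadjusted p, with the dashed line at 0.05. Red names are genes higher in RCF and dark blue names genes lower in RCF; Pbld1 and Arntl stand at the top on the higher side, Mt2 and Ttyh1 at the top on the lower side.

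Of 23 clock genes measured, 2 were higher and 13 lower in RCF lungs at an unadjusted p under 0.05, against 3.08% and 3.05% of all genes. The lists were chosen with earlier results of these data known, and they include Leo1 and Tspan4, which are not parts of the loop, so the counts describe these arrays and are no independent evidence. Arntl, the activator, was the gene of the clock with the smallest p: its level was -0.93, -1.09, -1.05 and -0.80 on the RCF arrays, against -2.13, -1.76 and -2.26 on the Ctrl arrays. The groups did not overlap, and the lowest RCF array lay above the highest Ctrl array. The difference was 1.08 (SE 0.15), a 2.11-fold level in RCF, with a limma adjusted p of 0.183. Within slides it was 1.33, 0.96 and 1.07, and with slide as a block 1.14 (adjusted p 0.224). Without Ctrl 3 it was 0.97 and without Ctrl 2 it was 1.22, the widest values among arrays left out.

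Sequences around the starts of 3 clock genes are shown because the loop acts through short motifs near gene starts. Each runs from 250 bases before to 50 after the start of the gene, from RefSeq on GRCm38.p6, 5′ to 3′ on the gene's strand. The Arntl window (chr7:113207261-113207560, plus strand) has AGGTCA, a core to which Nr1d1 and Nr1d2 bind, in capitals. The Ciart window (chr3:95882179-95882478, minus strand) and the Tef window (chr15:81802423-81802722, plus strand) have the E-box CACGTG, to which Arntl and Clock bind, in capitals.
Arntl: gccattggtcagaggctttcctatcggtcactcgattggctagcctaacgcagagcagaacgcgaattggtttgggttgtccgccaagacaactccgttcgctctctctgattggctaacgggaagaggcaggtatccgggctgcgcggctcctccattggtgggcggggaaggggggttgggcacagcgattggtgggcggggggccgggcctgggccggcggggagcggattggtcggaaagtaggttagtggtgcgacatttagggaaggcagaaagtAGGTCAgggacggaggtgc
Ciart: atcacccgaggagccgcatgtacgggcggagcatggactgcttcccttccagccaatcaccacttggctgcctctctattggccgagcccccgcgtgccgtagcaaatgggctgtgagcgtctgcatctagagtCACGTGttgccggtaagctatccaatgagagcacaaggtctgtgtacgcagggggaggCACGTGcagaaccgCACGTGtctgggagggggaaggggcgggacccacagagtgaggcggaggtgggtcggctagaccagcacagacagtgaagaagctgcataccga
Tef: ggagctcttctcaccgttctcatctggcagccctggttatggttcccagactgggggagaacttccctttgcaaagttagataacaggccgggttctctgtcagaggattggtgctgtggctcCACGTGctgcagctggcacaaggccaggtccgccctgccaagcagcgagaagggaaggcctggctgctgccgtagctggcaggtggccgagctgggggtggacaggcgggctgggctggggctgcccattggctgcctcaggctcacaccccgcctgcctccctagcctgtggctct
Both strands were searched, and CACGTG, being its own reverse complement, reads the same on each. Ciart held 3 E-boxes, starting 116, 58 and 44 bases before the gene start, and Tef held 1. Of the 18 repressor and output genes, 15 had a window and 6 of these an E-box (Bhlhe41, Ciart, Cry1, Per1, Tef and Tspan4), against 8.09% of 27025 genes with a window and 7.15% of 32851 windows. None of the 4 activator genes with a window held one. The Arntl core AGGTCA starts at base 32 after the gene start, and the core was found in 16.3% of windows. A match is a description of these letters and not of binding.

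The repressors lay on the lower side. Of 10 measured, 6 were lower at an unadjusted p under 0.05, against 3.05% of all genes, and 0 were higher. The median difference was -0.34, against 0.00 over all genes. Per2 was at -0.89, -0.72, -0.38 and -0.93 in RCF, against 0.02, -0.13 and 0.19 in Ctrl. All 4 RCF arrays lay below all 3 Ctrl arrays, and the difference was -0.76 (SE 0.18, adjusted p 0.438). A second, dimmer Per2 probe differed by 0.27 (SE 0.39), the other way. Ciart, a repressor of the Arntl and Clock pair whose E-boxes are printed above, was at -3.35, -2.91, -2.59 and -3.65 in RCF, against -1.79, -2.60 and -2.03 in Ctrl. Its groups met, RCF 3 lying just above Ctrl 2, and the difference was -0.98 (SE 0.31, adjusted p 0.694). Cry1 differed by -0.64 (SE 0.25), Cry2 by -0.34 (SE 0.13), Nr1d2 by -0.40 (SE 0.17) and Bhlhe40, a repressor at E-boxes, by -0.28 (SE 0.13). The other repressor genes differed by less than their error: Per3 by -0.34 (SE 0.35), Nr1d1 by -0.20 (SE 0.24, and 0.12 at a dimmer probe), Bhlhe41 by -0.22 (SE 0.31) and Per1 by 0.09 (SE 0.34). The count of 6 was 2 without RCF 4, without Ctrl 1 or without Ctrl 3, and 1 without RCF 1 and Ctrl 1 together, while the median stayed between -0.47 and -0.23 in all 21 alternatives.

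Among output genes 1 of 8 was higher and 6 were lower at an unadjusted p under 0.05, against 3.08% and 3.05% of all genes. The median difference was -0.52, and the 8 include Leo1 and Tspan4, which are not parts of the loop. Tef, a transcription factor of the PAR bZIP family, was at 2.51, 2.54, 2.54 and 2.50 in RCF, against 2.93, 3.14 and 3.28 in Ctrl. The RCF arrays lay within 0.04 of each other and below every Ctrl array, and the difference was -0.59 (SE 0.12, adjusted p 0.244). Its other probes gave -0.74 and -0.63. Tspan4, a tetraspanin, was at 4.83, 4.76, 4.54 and 4.80 in RCF, against 5.52, 5.33 and 5.61 in Ctrl, a difference of -0.75 (SE 0.14, adjusted p 0.238). Wee1, the kinase that holds cells before mitosis and that is under clock control in mouse liver, was at -5.32, -5.37, -5.19 and -5.70 in RCF, against -4.77, -4.79 and -4.17 in Ctrl. No arrays overlapped for either gene; Wee1 differed by -0.82 (SE 0.20, adjusted p 0.438). Usp2, a deubiquitinase, differed by -0.66 (SE 0.22; -0.34 at a dimmer probe), Hlf by -0.44 (SE 0.16) and Dbp by -0.43 (SE 0.15). The member higher at that p was Leo1, a subunit of the PAF1 complex that travels with RNA polymerase: 0.27, 0.36, 0.41 and 0.37 in RCF, against -0.10, -0.16 and -0.49 in Ctrl, a difference of 0.61 (SE 0.13, adjusted p 0.320). Nfil3, which competes with Dbp and Tef for their sites, differed by 0.61 with an SE of 1.43, and by 0.27 without Ctrl 2 and 1.15 without Ctrl 1. The count of 6 lower was 5 or 6 with any single array left out and 5 without RCF 1 and Ctrl 1 together.

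Of the 5 activator genes, Arntl was the 1 that was higher at an unadjusted p under 0.05, and the list's median was 0.28. Beside Arntl, Clock differed by 0.28 (SE 0.15) at its brightest probe, and Npas2, a relative of Clock, by 1.04 (SE 0.56) at a probe well above background on only 2 of 4 RCF and 1 of 3 Ctrl arrays. A dimmer Clock probe, above background on 0 of 4 RCF and 1 of 3 Ctrl arrays, differed by -0.57. The nuclear receptor Rora differed by -0.19 (SE 0.26).

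**Figure D2:**
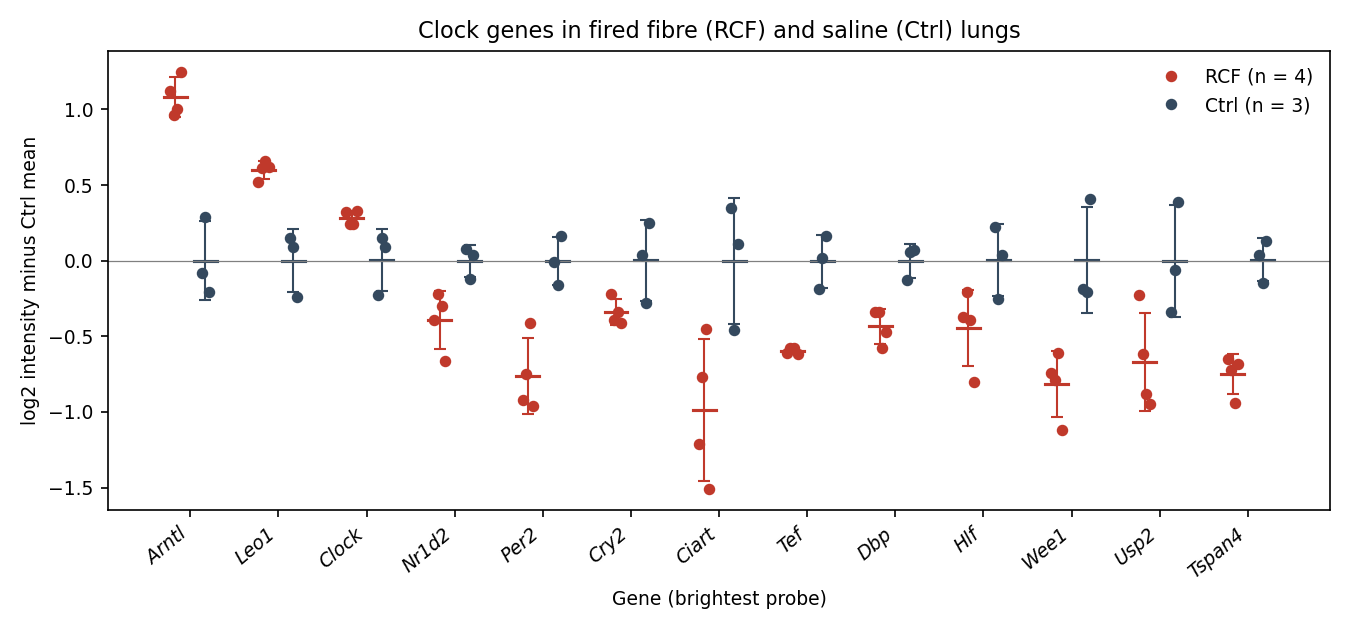
Points are single arrays of 13 genes of the clock lists, Leo1 and Tspan4 included, as log2 intensity minus the gene's Ctrl mean. RCF (red, 4 arrays) is left of Ctrl (dark blue, 3 arrays), bars are means and error lines 1 SD. Arntl, Leo1 and Clock stand above Ctrl and the other 10 genes below, with the groups apart for Arntl, Leo1, Clock, Nr1d2, Per2, Tef, Dbp, Wee1 and Tspan4.

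Metallothioneins and targets of Nrf2, the factor that answers electrophiles and oxidants, lay mostly lower in RCF lungs. Of 18 measured, 15 were lower, against 50.3% of all genes. At an unadjusted p under 0.05, 6 were lower, against 3.05% of all genes, and 0 were higher. The median was -0.34, and -0.12 without Ctrl 1. Mt2 was at 3.63, 3.21, 3.27 and 3.39 in RCF, against 4.83, 4.49 and 4.30 in Ctrl. Its groups did not overlap, and RCF stood at 0.447 of the Ctrl level, a difference of -1.16 (SE 0.18, adjusted p 0.185). The within-slide values were -0.67, -1.10 and -1.56. Mt1 was at 4.11, 3.84, 3.51 and 3.93 in RCF, against 4.48, 4.24 and 4.58 in Ctrl, a difference of -0.58 (SE 0.20, adjusted p 0.786). Mt3, the brain form, differed by 0.07 (SE 0.20).

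The windows of Mt2 (chr8:94172368-94172667, plus strand) and Mt1 (chr8:94178839-94179138, plus strand) are printed because both genes are known to respond to metal through metal response elements. Capitals mark the cores TGCGCNC and TGCACNC on either strand.
Mt2: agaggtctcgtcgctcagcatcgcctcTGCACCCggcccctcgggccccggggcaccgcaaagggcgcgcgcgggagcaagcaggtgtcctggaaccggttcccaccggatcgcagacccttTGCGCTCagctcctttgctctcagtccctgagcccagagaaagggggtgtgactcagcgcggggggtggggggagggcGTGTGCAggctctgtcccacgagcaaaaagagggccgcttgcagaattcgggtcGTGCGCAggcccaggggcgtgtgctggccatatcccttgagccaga
Mt1: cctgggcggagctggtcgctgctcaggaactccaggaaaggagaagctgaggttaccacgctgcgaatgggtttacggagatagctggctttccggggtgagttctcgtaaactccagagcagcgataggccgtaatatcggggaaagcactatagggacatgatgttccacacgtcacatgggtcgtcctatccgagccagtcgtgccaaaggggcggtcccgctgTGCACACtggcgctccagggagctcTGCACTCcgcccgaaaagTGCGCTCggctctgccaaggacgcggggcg
Mt2 held 4 cores and Mt1 held 3. A core was found for 7 of the 16 list genes with a window, against 28.2% of all genes with one, and in 25.7% of all windows.

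Among the Nrf2 targets, Hmox1, the haem-degrading oxygenase, was at 2.30, 2.16, 2.26 and 2.13 in RCF, against 3.15, 2.62 and 2.57 in Ctrl. The groups were apart, and the difference was -0.57 (SE 0.14, adjusted p 0.438). Osgin1, an oxidative-stress growth inhibitor, differed by -0.48 (SE 0.13), and Gsta2, a glutathione transferase, by -0.53 (SE 0.22). Nqo1, a quinone reductase, rested on 1 array: it was at 0.12, 0.37, 0.14 and 0.02 in RCF, against 2.02, -0.11 and 0.20 in Ctrl, and the difference of -0.54 became 0.12 without Ctrl 1. Of 20 glutathione, peroxiredoxin and superoxide enzymes at their brightest probes, 0 passed an unadjusted p of 0.05 in limma and 0 an adjusted one. Their median was -0.05. Prdx6 differed by -0.21 (SE 0.10) at its brightest probe and by -0.28 (SE 0.15) and -0.59 (SE 0.13) at dimmer ones. The last had an unadjusted limma p of 0.000682 and an adjusted p of 0.322.

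The inducible Hsp70 genes and Dnajb1 lay higher in RCF, and most other chaperones did not. Of 17 measured, 3 were higher and 2 lower at an unadjusted p under 0.05, against 3.08% and 3.05% of all genes. The median was -0.11. Hspa1a, inducible Hsp70, was at 3.54, 2.87, 3.38 and 2.91 in RCF, against 1.66, 1.04 and 1.82 in Ctrl, a difference of 1.67 (SE 0.48, adjusted p 0.603). Its near-identical copy Hspa1b was at 1.05, 0.31, 1.11 and 0.38 in RCF, against -0.53, -1.54 and -0.54 in Ctrl, a difference of 1.58 (SE 0.53, adjusted p 0.761). Probes of these copies can bind each other's RNA, so the pair cannot be read separately. Dnajb1, the co-chaperone of Hsp70, was at 5.54, 5.12, 5.46 and 5.31 in RCF, against 4.5, 4.31 and 4.43 in Ctrl, a difference of 0.95 (SE 0.22, adjusted p 0.386) and 0.33 (SE 0.18) at a dimmer probe. For all of these the RCF arrays lay above the Ctrl arrays, and the 3 within-slide differences of Hspa1a were 1.72, 1.87 and 1.72. The small heat shock protein Hspb1 differed by -0.48 (SE 0.19) and Hspa5, the chaperone of the endoplasmic reticulum, by -0.34 (SE 0.15). The count of 2 lower was 0 without RCF 1, RCF 2, RCF 4, Ctrl 1 or Ctrl 2 and 1 without RCF 3 or Ctrl 3.

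The Hspa1b window (chr17:34959189-34959488, minus strand) is shown with the heat shock element in capitals, searched as TTCNNGAA or GAANNTTC, each its own reverse complement.
Hspa1b: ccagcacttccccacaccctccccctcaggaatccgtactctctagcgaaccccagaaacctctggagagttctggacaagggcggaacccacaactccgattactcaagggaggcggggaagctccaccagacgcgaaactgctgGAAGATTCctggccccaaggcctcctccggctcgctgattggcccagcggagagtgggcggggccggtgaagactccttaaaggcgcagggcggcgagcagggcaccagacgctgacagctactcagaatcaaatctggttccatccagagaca
It held 1 match, starting 104 bases before the gene start. A match was found for 8 of 13 list genes with a window, against 17% of all genes with one, and in 15.1% of all windows.

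Immediate early genes, which cells switch on within minutes of a stimulus, depended on which Ctrl arrays were kept. Of 16, 14 were higher, against 7192 of all 14468 genes, with a median of 0.36. At an unadjusted p under 0.05, 3 were higher, against 3.08% of all genes. The count was 13 without Ctrl 1 and 0 without Ctrl 2, and the score was 0.57, -0.61 and 0.04 on the Ctrl arrays, beside 0.43, 0.32, 0.32 and 0.46 on the RCF arrays. Klf4, a zinc finger factor, was at 6.62, 6.41, 6.56 and 6.32 in RCF, against 5.84, 5.65 and 6.06 in Ctrl, with the groups apart. It differed by 0.63 (SE 0.22, adjusted p 0.784). Nr4a1, an orphan nuclear receptor, was at 6.27, 5.93, 5.74 and 6.27 in RCF, against 5.94, 3.80 and 5.05 in Ctrl, with the groups overlapping at Ctrl 1. Its difference was 1.13 (SE 0.39), and 0.56 without Ctrl 2.

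Genes that answer amino acid shortage through Atf4 included 3 of 14 that were lower at an unadjusted p under 0.05, against 3.05% of all genes. At that p 0 were higher, and the median was -0.08. The count of 3 was 1 after normexp correction and 2 without RCF 1, RCF 2, RCF 3, Ctrl 1, Ctrl 2 or Ctrl 3. Without Ctrl 1 or Ctrl 3, 1 gene was higher at that p. Cars, the cysteinyl-tRNA synthetase, was at 0.43, 0.55, 0.54 and 0.52 in RCF, against 1.09, 0.99 and 1.13 in Ctrl, a difference of -0.56 (SE 0.10, adjusted p 0.189). Psat1, of serine synthesis, differed by -0.45 (SE 0.11) and Chac1, which degrades glutathione, by -0.42 (SE 0.19). Of 13 glucocorticoid targets 3 were lower at an unadjusted p under 0.05, against 3.05% of all genes, and 1 of these is Mt2. Fkbp5, a co-chaperone of the glucocorticoid receptor, was at -4.17, -4.22, -3.15 and -3.88 in RCF, against -2.02, -2.77 and -2.84 in Ctrl. The difference was -1.31 (SE 0.41, adjusted p 0.683) at this probe, and -0.77 (SE 0.32) and -0.11 (SE 0.24) at dimmer ones, while the list's median was 0.07. Lcn2, an iron-carrier-binding protein also abundant in neutrophils, differed by -1.22 (SE 0.43).

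**Figure D3:**
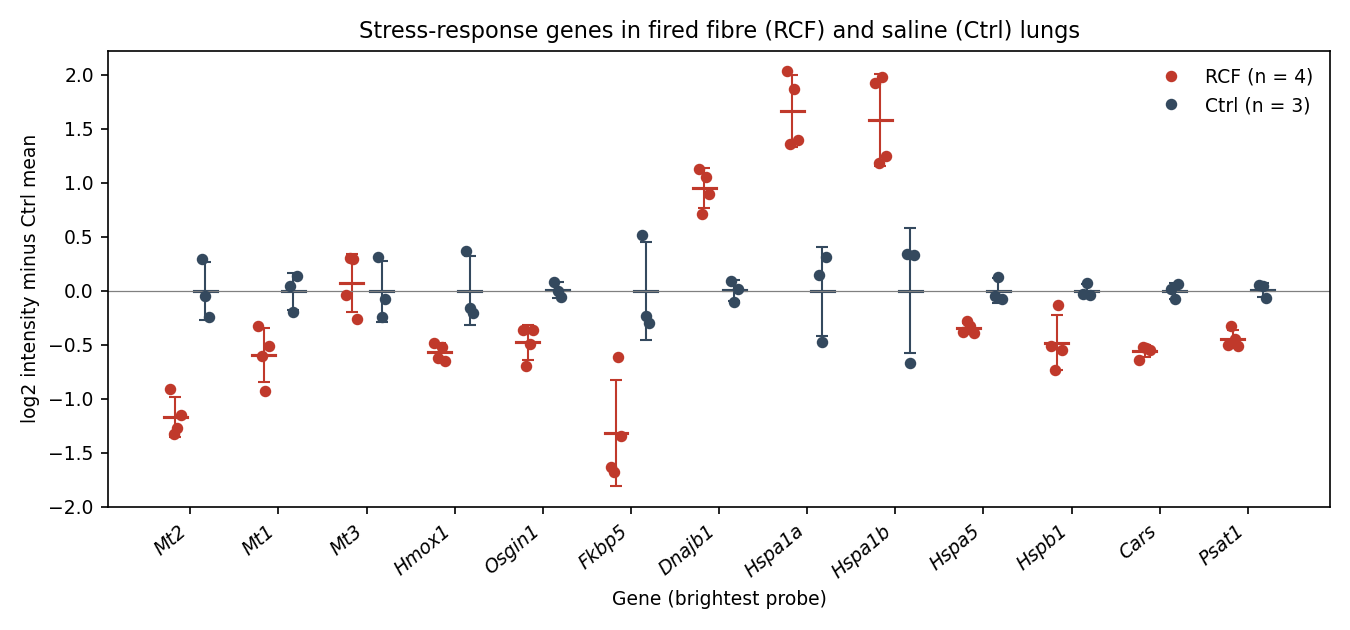
Single arrays of 13 stress-response genes, as log2 intensity minus the gene's Ctrl mean, RCF (red, 4 arrays) left of Ctrl (dark blue, 3 arrays), with means and 1 SD. Mt2, Mt1, Hmox1, Osgin1, Fkbp5, Hspa5, Hspb1, Cars and Psat1 stand below Ctrl without overlap, and Dnajb1, Hspa1a and Hspa1b stand above it without overlap.

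Vascular genes held 3 of 16 that were higher at an unadjusted p under 0.05, against 3.08% of all genes, and 0 that were lower. Their median was 0.11, and the count of 3 was 1 after normexp correction. Angpt2, an endothelial ligand that loosens vessels through the receptor Tek, was at 1.78, 1.75, 1.54 and 1.65 in RCF, against 0.67, 1.13 and 0.87 in Ctrl. Its difference was 0.79 (SE 0.13, adjusted p 0.185), with 0.91, 0.53 and 0.87 within slides. Apln, the peptide apelin of sprouting endothelium, differed by 0.47 (SE 0.14), and Aplnr, its receptor, by 0.70 (SE 0.25) and by 0.28 (SE 0.20) at a dimmer probe. Of genes that mark endothelial identity, Pecam1 differed by -0.20 and Cdh5 by 0.24, neither at an unadjusted p under 0.05.

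Wnt2, a ligand of the developing lung, was at 3.08, 2.91, 2.91 and 2.74 in RCF, against 2.16, 2.21 and 2.21 in Ctrl. The groups were apart, and the difference was 0.72 (SE 0.11, adjusted p 0.185). It was the 1 gene of 15 in the Wnt list at an unadjusted p under 0.05, against 3.08% of all genes higher and 3.05% lower. Axin2, a target of the pathway, differed by 0.49 (SE 0.27), or 0.30 without Ctrl 1. Shh, the epithelial hedgehog ligand, was at -1.73, -1.69, -1.89 and -1.80 in RCF, against -0.87, -1.38 and -1.23 in Ctrl, a difference of -0.62 (SE 0.15, adjusted p 0.442). Its receptor Ptch1 differed by 0.28 (SE 0.16) and its target Gli1 by 0.22 (SE 0.20).

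The genes with the smallest p outside these lists were of varied function. Those from Pbld1 to Nlgn1 below were picked among genes whose groups do not overlap. They also had to stand above background on every array of the brighter group. Pbld1, a phenazine-biosynthesis-like domain protein, had the smallest p of all: -4.12, -4.24, -4.21 and -4.37 in RCF, against -5.50, -5.04 and -5.26 in Ctrl, a difference of 1.03 (SE 0.13, adjusted p 0.122). It was dim, and normexp correction gave 0.34. Dach1, a transcriptional cofactor, was at 2.27, 2.25, 2.11 and 2.15 in RCF, against 0.87, 1.21 and 1.60 in Ctrl, a difference of 0.97 (SE 0.19, adjusted p 0.238). Gem, a small GTPase that restrains calcium channels, differed by 0.64 (SE 0.12). Olfr1495, an olfactory receptor, differed by 1.68 (SE 0.28, adjusted p 0.185) at a probe above background on 4 of 4 RCF and 1 of 3 Ctrl arrays.

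On the lower side Fam107a, an actin-associated protein, was at -2.26, -2.55, -2.13 and -2.80 in RCF, against -1.42, -1.0 and -0.89 in Ctrl. All RCF arrays lay below all Ctrl arrays, as the choice of these genes required, and the difference was -1.33 (SE 0.25, adjusted p 0.238). Raph1, which links Ras signals to actin at the leading edge, differed by -0.70 (SE 0.12, adjusted p 0.189). Nlgn1, a synaptic adhesion protein, was well above background on 0 of 4 RCF and 3 of 3 Ctrl arrays, so that RCF is only bounded. In the fit reported it stood at least 2.63-fold lower (limma adjusted p 0.244). The bound does not hold under normexp correction, which gave a difference of only -0.11. The bound takes, on each RCF array, the higher of the probe's own signal and the lowest signal among probes well above background. Cyp1b1, an oxidase of hydrocarbons and steroids, was at -0.85, -0.90, -1.18 and -0.86 in RCF, against -0.45, -0.36 and -0.44 in Ctrl, a difference of -0.53 (SE 0.11, adjusted p 0.277). Cyp1a1, a target of the aryl hydrocarbon receptor, overlapped between the groups, with Ctrl 1 at 1.21 and the other Ctrl arrays at -3.04 and -2.91.

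Red blood cell genes were higher in RCF, 11 of 11, against 7192 of all 14468 genes. At an unadjusted p under 0.05, 5 were higher, against 3.08% of all genes. The median was 0.60, or 1.01 without Ctrl 1 and 0.15 after normexp correction. Hba-a1, an alpha globin, was at 7.96, 8.42, 8.30 and 8.09 in RCF, against 6.76, 7.20 and 6.29 in Ctrl, a difference of 1.44 (SE 0.30, adjusted p 0.277). Alas2, which starts haem synthesis in erythroid cells, differed by 1.69 (SE 0.44). The globin genes are near copies of each other and their probes may share RNA. The list's score lay between 0.67 and 0.99 in RCF and between -0.48 and 0.50 in Ctrl, and its part in the other differences was not tested.

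Markers of lung phagocytes were slightly lower. Of 17 alveolar macrophage genes 15 were lower, against 50.3% of all genes, and the median was -0.13. At an unadjusted p under 0.05, 3 were lower, against 3.05% of all genes. The RCF arrays lay below the Ctrl arrays for 6 of the 17, against 4.71% of all genes. Pparg, the receptor that sets up these cells, was at 1.46, 1.46, 1.29 and 1.54 in RCF, against 1.70, 1.73 and 1.74 in Ctrl, a difference of -0.28 (SE 0.10, adjusted p 0.828). The count of 3 was 1 without RCF 3. Of 13 monocyte genes 12 were lower, 2 at that p (Cd14 and Ly6c2), with a median of -0.38. That count was 1 without Ctrl 1, 0 without Ctrl 2 and 7 without Ctrl 3, and the median was -0.22 without Ctrl 1.

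Among 16 CC chemokines, which draw in monocytes and lymphocytes, 5 were lower at an unadjusted p under 0.05, against 3.05% of all genes. At that p 0 were higher, and the median was -0.29. Ccl12, a monocyte attractant, was at -2.80, -2.59, -1.90 and -2.19 in RCF, against -1.23, -0.32 and -1.14 in Ctrl. Its groups were apart, and RCF stood at 0.361 of the Ctrl level, a difference of -1.47 (SE 0.31, adjusted p 0.295). Ccl17, a ligand for T helper cells, differed by -0.98 (SE 0.31), and by -0.64 without Ctrl 1. The related Ccl2 differed by -0.62 (SE 0.28) and Ccl7 by -0.72 (SE 0.33). The count of 5 was 3 without RCF 1, RCF 2 or RCF 3 and 2 without Ctrl 1 or Ctrl 2. It was 2 after normexp correction, and without Ctrl 3 it was 7, with 1 gene higher. The list's median was -0.01 without Ctrl 2 and -0.83 without Ctrl 3. The monocyte score lay between -0.50 and -0.11 in RCF and between -0.38 and 0.20 in Ctrl, and its part in the chemokine differences was not tested.

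Cell division genes lay lower in 27 of 28 cases, against 50.3% of all genes, with a median of -0.34. At an unadjusted p under 0.05, 5 were lower, against 3.05% of all genes. Mki67, the proliferation marker, was at -0.17, 0.21, 0.57 and 0.33 in RCF, against 1.23, 1.00 and 0.31 in Ctrl, so that Ctrl 3 lay among the RCF arrays. The count of 5 was 0 without RCF 1, Ctrl 1 or Ctrl 2, 2 without RCF 2 and 17 without Ctrl 3. The median was -0.57 without Ctrl 3 and -0.17 without RCF 1 and Ctrl 1 together. Neutrophil genes had the lowest median of any list, -0.70, and 0.00 without Ctrl 1.

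Genes often read after fibre exposure differed by about their error or less at the brightest probe. Il1b, the inflammasome cytokine, differed by 0.10 (SE 0.62) and Tnf by -0.03 (SE 0.31). Spp1, osteopontin, differed by -0.24 (SE 0.23), Gpnmb by -0.16 (SE 0.29) and Mmp12, the macrophage elastase, by -0.28 (SE 0.31). Col1a1, of fibrillar collagen, differed by 0.16 (SE 0.27) at its brightest probe and by -0.39 (SE 0.23) at another. Differences of the size of these errors were not detectable with this number of arrays. Eln, elastin, was at -0.70, -0.99, -0.43 and -0.09 in RCF, against 0.78, 0.00 and -0.16 in Ctrl, a difference of -0.76 (SE 0.28) and of -0.48 without Ctrl 1, and Timp1, a protease inhibitor, differed by -0.96 (SE 0.35). In 17 of the 47 lists 0 genes passed an unadjusted p of 0.05 in limma, among them alveolar type 1 and type 2 genes, motile cilia, B and T cells, MHC class II and oxidative phosphorylation.

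**Figure D4:**
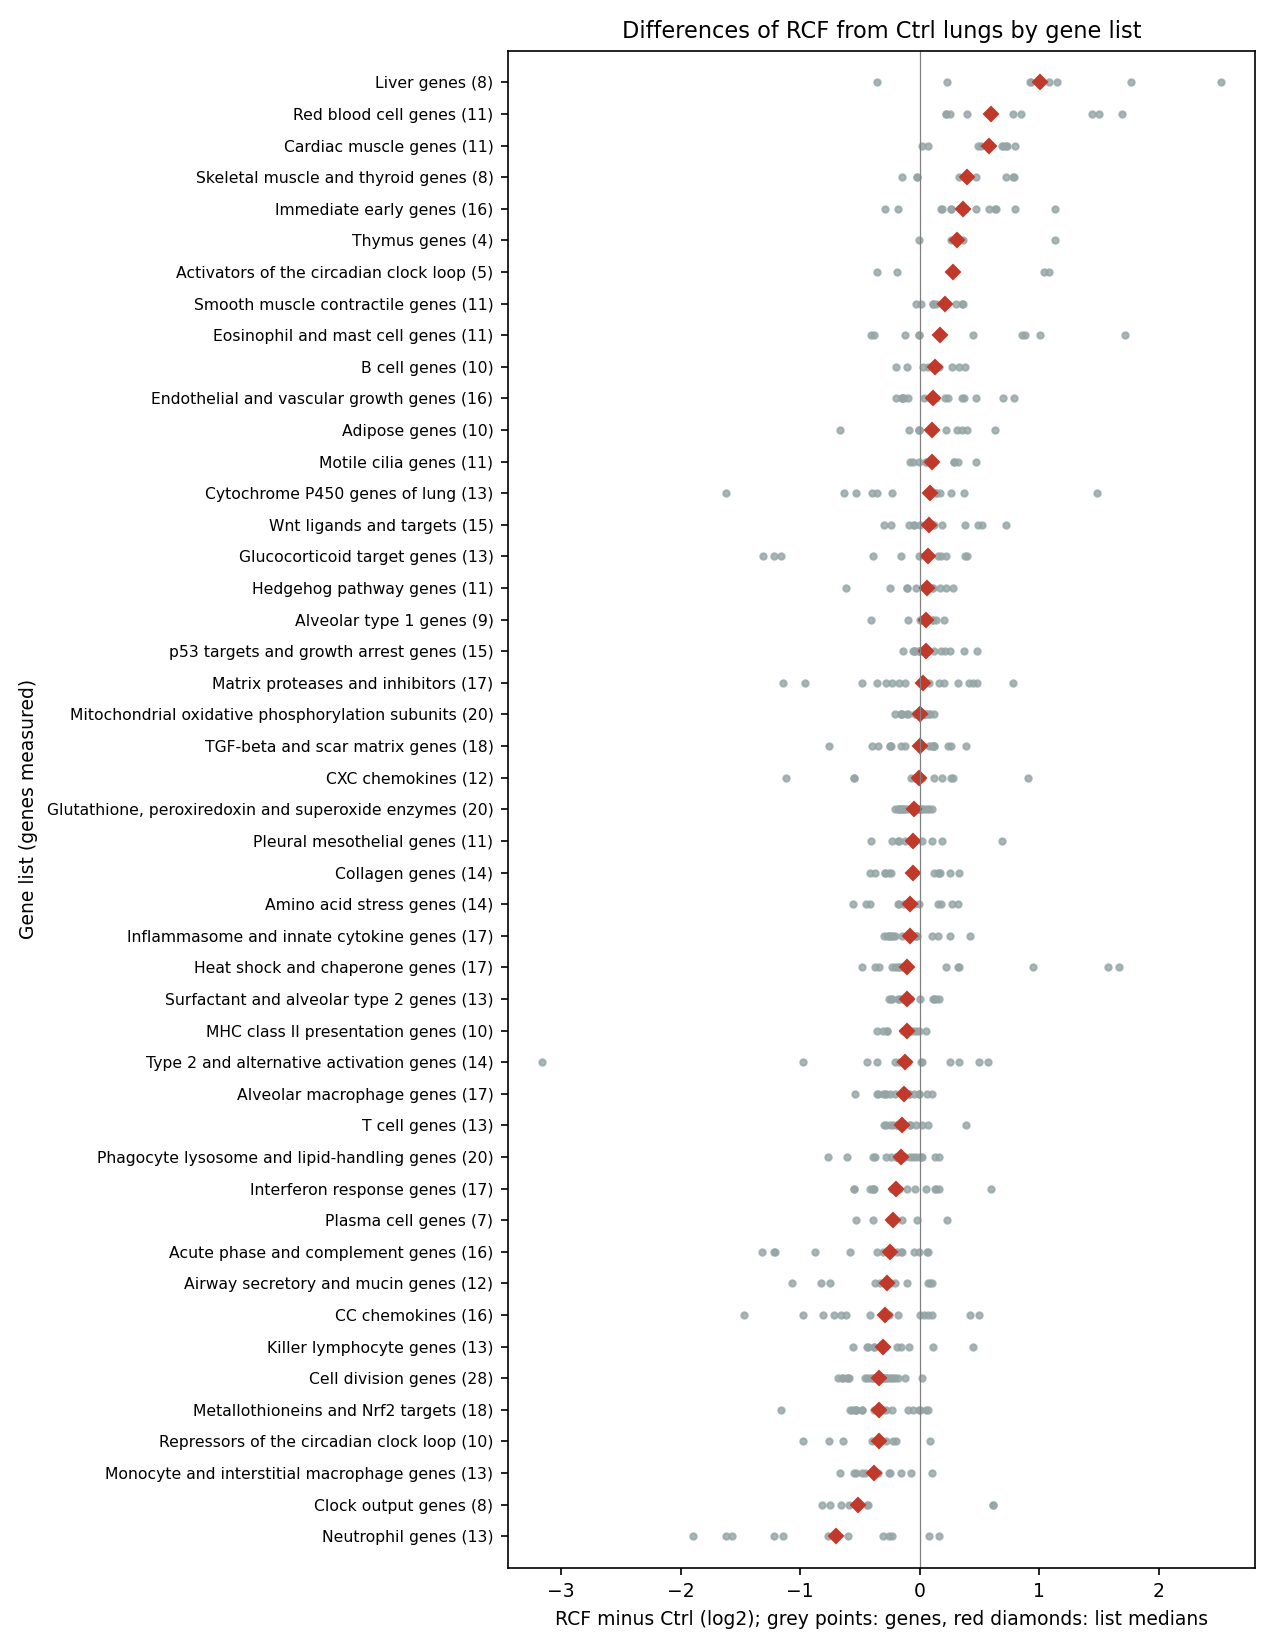
Differences RCF minus Ctrl (log2) by gene list, with the number of genes measured in brackets; grey points are genes and red diamonds list medians, ordered by median. Liver, red cell and cardiac genes are at the top, and neutrophil and clock output genes at the bottom; the liver median was -0.01 without RCF 1 and the cardiac median -0.11 without Ctrl 2.

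The last comparison asked where fired fibre lungs differ from lungs given the other fibres. No probe differed between RCF and VCF (0 of 29271, 0%; smallest limma adjusted p 0.109; 1545 probes at an unadjusted p under 0.05) or between RCF and CCF (0 of 29271, 0%; smallest 0.415; 2313 probes). The 3 contrasts share the RCF arrays, so their values are given side by side and are not independent. Arntl was at -1.90, -1.36, -1.72 and -1.64 in VCF and at -1.49, -1.60 and -1.35 in CCF, below all 4 RCF arrays. RCF exceeded VCF by 0.69 (SE 0.14, adjusted p 0.649) and CCF by 0.51 (SE 0.15, adjusted p 0.479).

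Per2 was at 0.02, 0.05, -0.17 and 0.09 in VCF and at 0.19, 0.25 and -0.44 in CCF. RCF differed from each of these groups by -0.73 (SE 0.17 for VCF and 0.18 for CCF), with 1 CCF array among the RCF arrays. Wee1 differed by -0.53 (SE 0.18) from VCF and by -0.89 (SE 0.20) from CCF. Fam107a differed by -0.97 (SE 0.23) from VCF and by -0.96 (SE 0.25) from CCF, and Ccl12 by -1.15 (SE 0.29) and -1.0 (SE 0.31).

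Hba-a1, Hspa1a and Shh differed from the other fibre groups by about their error or less. Hba-a1 differed by -0.31 (SE 0.28) from VCF and by 0.21 (SE 0.30) from CCF. Hspa1a differed by 0.21 (SE 0.45) from VCF and by 0.35 (SE 0.48) from CCF. Shh differed by 0.07 (SE 0.14) from VCF and by 0.03 (SE 0.15) from CCF. Mt2 and Angpt2 differed from these groups by less than from Ctrl. Mt2 was at 3.95, 3.80, 3.85 and 3.70 in VCF and at 3.26, 3.68 and 4.01 in CCF, and RCF differed from VCF by -0.45 (SE 0.17), all RCF arrays lying below all VCF arrays, and from CCF by -0.27 (SE 0.18). Angpt2 exceeded VCF by 0.37 (SE 0.12) and CCF by 0.66 (SE 0.13).

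**Figure D5:**
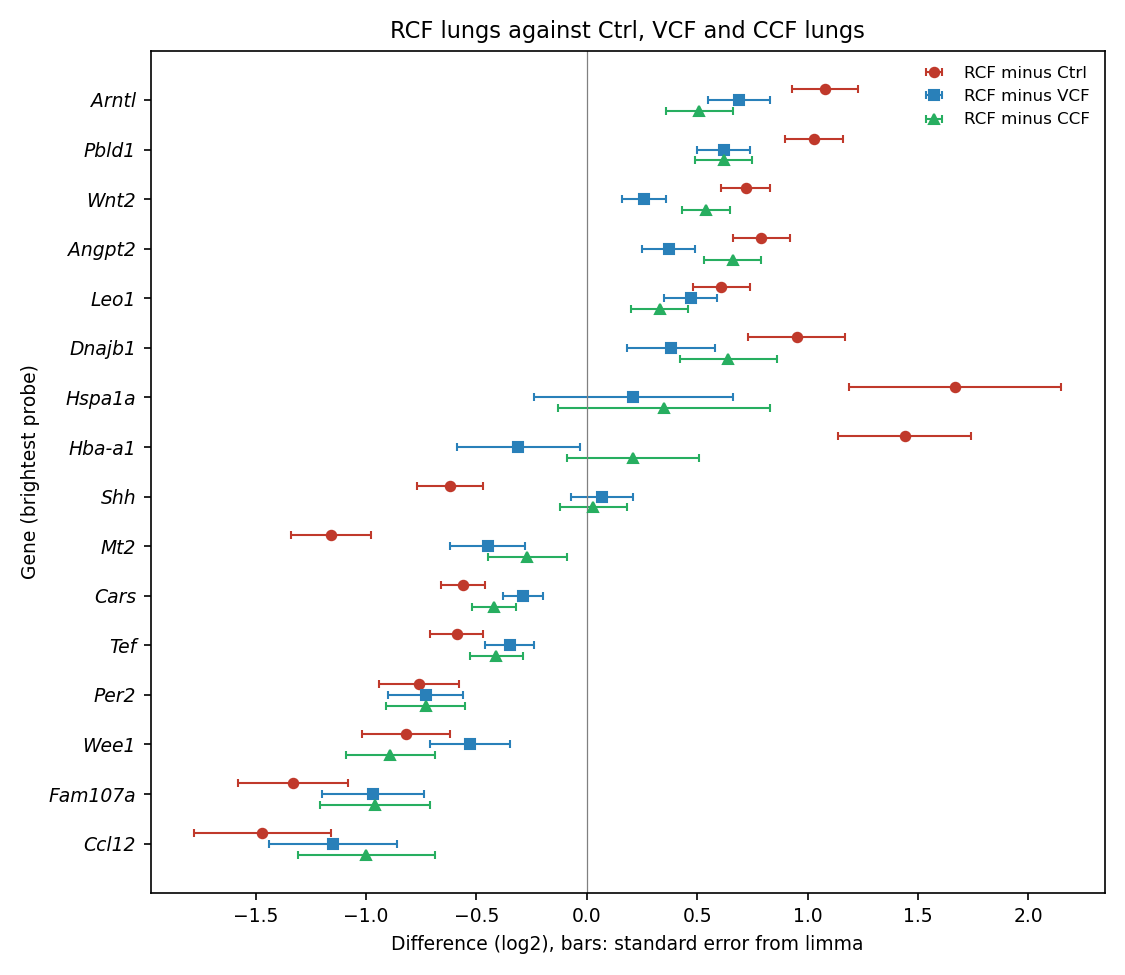
Differences of RCF from Ctrl (red circles), VCF (blue squares) and CCF (green triangles) in log2 for 16 genes, with standard errors from limma. Arntl, Per2, Wee1, Fam107a, Ccl12, Mt2 and Angpt2 are among the genes on the same side of 0 in all 3. Hba-a1, Hspa1a and Shh lie near 0 against VCF and CCF. No difference passed the adjusted threshold.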

How the data were processed

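Total RNA of mouse lungs was labelled with Cy3 and hybridized to one-colour 44K oligonucleotide arrays, 1 lung per array. The deposited scanner files hold intensity values per spot, background-subtracted and not normalized between arrays, which the headers of the files credit to Agilent Feature Extraction, version 10.7.3.1. Other columns of these files, such as the flags for outlier and well-above-background spots, also come from that software per the file headers. The authors also deposited values on a log2 scale, of which 99.8%, over 27496 probes, equal log2 intensity minus a constant per array, within 0.01.

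Control spots (1639) and spots flagged as non-uniform were left out, spots of a probe were averaged, and each array was scaled by its 75th percentile before log2, giving 41174 probes. A probe was tested if well above background on at least 3 of 14 arrays; 124 tested probes miss 1 array's value. RefSeq names (GRCm38.p6) were given to 24844 probes (17178 genes), and 16330 probes had none. limma 3.58.1 in R 4.3.3 fitted all 4 groups together (10 residual and 2.39 prior degrees of freedom), two-sided, with Benjamini-Hochberg adjustment over all tested probes. The R package data.table (version 1.17.8) read the files, and matplotlib 3.10.9 under Python 3.11.15 drew the figures. The script was tested on simulated data.

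Genes named are, from a rule, the 15 in each direction with the smallest p among genes whose groups do not overlap and that stand above background on every array of the brighter group, up to 5 members of each of 47 lists by p, all clock genes and metallothioneins, and a panel of lung genes; some are not reported here, and Pecam1 and Cdh5 were added after their values were seen. The members and lists were chosen with earlier results of these data known. The number of arrays limits the precision. Alternatives tried were other background corrections, normalizations, filters, blocks, priors, weights and probe rules, and leaving out arrays.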

Additional observations from a re-analysis of the deposited data

Results flagged for a closer look

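In 113 genes and 47 list scores the 4 RCF arrays were examined for an array far from the other 3 by Dixon's ratio, and 4 genes and 3 lists were found, where chance flags about 1 in 20 groups. On array RCF 1 the liver genes stood far above the rest: Mup1, a major urinary protein, was at 2.80, against -4.49 to -3.31 on the other RCF arrays, and Alb, albumin, was at 0.59, against -3.86 to -3.12. The liver list score of RCF 1 was 3.94, against -0.21 to 0.39. The eosinophil and mast cell score of RCF 1 was 0.60, against 0.29 to 0.33. On array RCF 3, Klf2, a factor of quiescent endothelium, was at 7.06, against 6.89 to 6.91, Cyp1b1 was at -1.18, against -0.90 to -0.85, and the clock activator score was 0.28, against 0.39 to 0.41.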

How the results depend on the processing

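The count of RCF against Ctrl probes at an adjusted p under 0.05 was 0 in the fit reported and 1 without a filter on dim probes (an unnamed probe), with position on the slide as a block (Olfr1495, adjusted p 0.00645), with array weights (Pbld1, adjusted p 0.0327) and with the mean over a gene's probes (Pbld1, adjusted p 0.0372). Genes at an unadjusted p under 0.05 were 44 higher and 31 lower with normexp, and 726 higher and 773 lower with array weights. With 1 array left out they were 291 to 494 higher and 284 to 503 lower, the 291 being without RCF 1 and the 284 without RCF 2. In the remaining alternatives both counts stayed within 1.5 times those reported. Of such genes 50.2% were higher in the fit reported, 43.9% with quantile normalization, 58.7% with normexp and 58.3% with position as a block. RCF against VCF gave 1 probe with slide as a block and 0 to 1 with an array left out (1 without RCF 3 or VCF 1), and RCF against CCF gave 0 to 3 (1 without RCF 2 and 3 without CCF 3).

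Of 113 genes, 97 kept their direction in all 21 alternatives tried, and 2328 of 2362 values did. Tnf became 0.05 with normexp, 0.12 with slide as a block and 0.06 without RCF 1 and Ctrl 1 together, an alternative chosen after seeing the data. That alternative also gave Per3 0.06, Nqo1 0.13, Mmp12 0.00 and Alb -0.10. Quantile normalization gave Sftpc 0.00 and Scgb1a1 -0.05, slide as a block gave Mt3 -0.02, and the mean over probes gave Clock -0.03 and Col1a1 -0.11. With 1 array left out the ranges that crossed or reached 0 were Ager -0.13 to 0.30, Bhlhe41 -0.53 to 0.04, Col1a1 -0.15 to 0.33, Il1b -0.59 to 1.07, Mmp12 -0.75 to 0.01, Mt3 -0.04 to 0.23, Nqo1 -0.95 to 0.12, Nr1d1 -0.40 to 0.01, Per1 -0.31 to 0.50, Per3 -0.62 to 0.01, Rora -0.33 to 0.02, Scgb1a1 -0.02 to 0.21 and Tnf -0.27 to 0.17. The cause of these shifts was not tested. Replicate numbers are shared by the groups but do not pair the arrays: same-numbered RCF and Ctrl arrays deviated with correlations of -0.08, -0.12 and -0.10. A replicate block gave 0 called probes, 403 genes higher and 455 lower, and turned Il1b to -0.05. Same-slide arrays correlated at 0.21, 0.20 and 0.07. Normexp was planned on mean spot intensity and was run on the median instead.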
